A study of Homo sapiens with 4 samples.

Results

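The genes described here are 10 keratins of basal, stressed, mucosal and simple epithelium: KRT5, KRT15, KRT6A, KRT16, KRT17, KRT13, KRT7, KRT8, KRT18 and KRT19. They were chosen by name, and each symbol matched 1 of the 56657 rows of the deposited gene table. RNA was sequenced from TE5 cells, an established line of esophageal squamous cell carcinoma, 7 days after puromycin selection of cells infected with lentivirus. Of the 4 libraries, 2 carried a control hairpin (shControl, genotype label WT) and 2 a hairpin against NUP153 (shNUP153, genotype label NUP153 knockdown). The sample descriptions tag the shNUP153 libraries g1 and g2, a tag that the controls lack. What it marks is not stated, so whether both carried the same hairpin is not known. All 4 share the cell line, the virus and the selection. Nothing in the labels says that replicates came from separate infections, and the p-values therefore cover only library-to-library spread, which may be technical. The question is how keratin RNA differs when NUP153, a protein of the nuclear pore, is depleted.

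Keratins are the intermediate filament proteins of epithelial cells. A filament is built from pairs of one acidic type I and one basic type II keratin, and the pairs used differ between epithelia. KRT8 and KRT18 pair in simple epithelium, KRT5 marks the basal layer of stratified epithelium, KRT13 belongs to the suprabasal layers of the esophageal lining, and KRT6A, KRT16 and KRT17 are induced in wounded or hyperproliferative epithelium. Type I genes other than KRT18 lie in a cluster on chromosome 17, and type II genes lie with KRT18 on chromosome 12.

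The members are similar in sequence, which bears on how surely reads can be given to one gene. The coding stretch that ends the central rod domain, at the conserved helix-termination motif, is shown for the type I members and the pseudogene KRT16P2, as 60 sense bases of a GENCODE release 29 transcript (GRCh38), with capitals where a base differs from KRT16.
KRT16: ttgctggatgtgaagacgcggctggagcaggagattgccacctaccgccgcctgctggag
KRT16P2: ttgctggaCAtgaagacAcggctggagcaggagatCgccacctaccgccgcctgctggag
KRT17: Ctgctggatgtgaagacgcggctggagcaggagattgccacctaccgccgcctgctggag
KRT13: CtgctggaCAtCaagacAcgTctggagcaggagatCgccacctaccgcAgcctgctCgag
KRT19: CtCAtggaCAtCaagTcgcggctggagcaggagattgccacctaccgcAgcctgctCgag
KRT15: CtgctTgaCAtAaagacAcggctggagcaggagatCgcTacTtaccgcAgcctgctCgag
KRT18: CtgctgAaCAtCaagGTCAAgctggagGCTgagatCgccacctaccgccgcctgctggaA
In this stretch KRT17 differed from KRT16 at 1 of 60 bases, KRT16P2 at 4, KRT13 and KRT19 at 9 each, KRT15 at 11 and KRT18 at 15. Over the whole principal transcript, the share of 31-base words also found in a transcript of another gene was 66.3% for KRT18, 59.5% for KRT8, 52.7% for KRT6A, 39.5% for KRT16 and 37.7% for KRT17. It was 11.4% for KRT19, 7.20% for KRT5, 4.87% for KRT7, 3.85% for KRT15 and 3.36% for KRT13. For KRT8 and KRT18 the leading partners were pseudogenes, for KRT6A they were KRT6C (45.7%) and KRT6B (40.5%), and for KRT16 they were pseudogenes and KRT14 (18.2%). The sources used here do not say how reads shared by such copies were counted, so values of KRT6A, KRT16, KRT17, KRT8 and KRT18 are uncertain in that respect.

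Libraries held 22606593 to 27396268 counts. NUP153 fell to 67.9 and 81.9 CPM (library-size-scaled counts, with TMM factors) in shNUP153 from 149 and 142 in shControl, or by 0.96 on the log2 scale (SE 0.06; adjusted p = 1.051e-14 by edgeR and 0.0531 by limma without a variance trend at a prior count of 0.5), so the target was reduced but still expressed. Each of the 10 squamous markers listed averaged at least 1 CPM, and their summed level was 2996 to 3025 CPM in shControl and 3304 to 3345 in shNUP153. They did not share a direction: LAMB3 (606 and 620 against 904 and 925 CPM), PERP and SERPINB5 were higher in both shNUP153 libraries, while TP63, SOX2 (48.2 and 49.4 against 37.6 and 39.4), DSG3, TRIM29, PKP1 and DSC3 were lower in both and SFN overlapped. KRT14, the usual basal partner of KRT5, was near 0 in this line: shControl libraries held 9 and 10 counts, and shNUP153 libraries 6 and 13. Summed markers of the other cell types were low and also higher in shNUP153, mostly through 1 gene a list: columnar and intestinal genes at 55.4 to 57.8 CPM against 78.5 to 79.5 (AGR2 from 33.5 and 33.9 to 57.2 and 55.6, with CDX2 and MUC2 overlapping between groups; 3 of 10 averaging 1 CPM or more; CDX1, TFF3 and REG4 at 0 counts), fibroblast genes at 13.9 to 14.9 against 17.5 to 17.8 (1 of 8, COL1A1; DCN and LUM at 0), and endothelial genes at 11.1 to 12.2 against 24.1 to 25.1 (2 of 5, mainly CDH5, and VWF; TEK and EMCN at 0 or 1 count). Leukocyte genes summed to 5.68 to 5.74 against 6.98 to 7.33 CPM (1 of 6, ITGAM; PTPRC at 0 to 3 counts), and Merkel and neuroendocrine genes to 2.63 to 3.38 against 3.93 to 4.21 (2 of 5, with SYP higher and ISL1 overlapping; ATOH1 at 0). The part of these markers in the keratin differences was not tested. In bulk RNA, fewer cells of a type and less RNA per cell cannot be told apart.

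Per kilobase of transcript (the shortest GENCODE principal transcript), the keratins fell into an abundant and a sparse set. In shControl, KRT8 averaged 855 CPM per kilobase, KRT19 729, KRT17 484 and KRT18 264. The next gene in the order, KRT6A, averaged 16.3, followed by KRT5 at 9.63, KRT15 at 8.74, KRT7 at 7.87, KRT13 at 1.57 and KRT16 at 1.09. Among the 10 members, KRT8, KRT19, KRT18 and KRT17 thus carried most RNA in this squamous line, while KRT7, the remaining simple epithelial member, was sparse. The order of KRT5, KRT15 and KRT7 is not firm, since KRT15 would average 3.997 with its longest principal transcript and the KRT7 replicates spanned 7.22 to 8.51. With longest principal transcripts KRT8 would average 706, below KRT19 at 729. In shNUP153 the 3 highest lay closer together, with KRT19 at 821, KRT17 at 821 and KRT8 at 799 CPM per kilobase. With longest principal transcripts these would average 821, 754 and 660. KRT7 passed KRT6A, KRT15 and KRT5 in shNUP153 (17.9 against 13.9, 13.3 and 6.05).

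**Figure D1:**
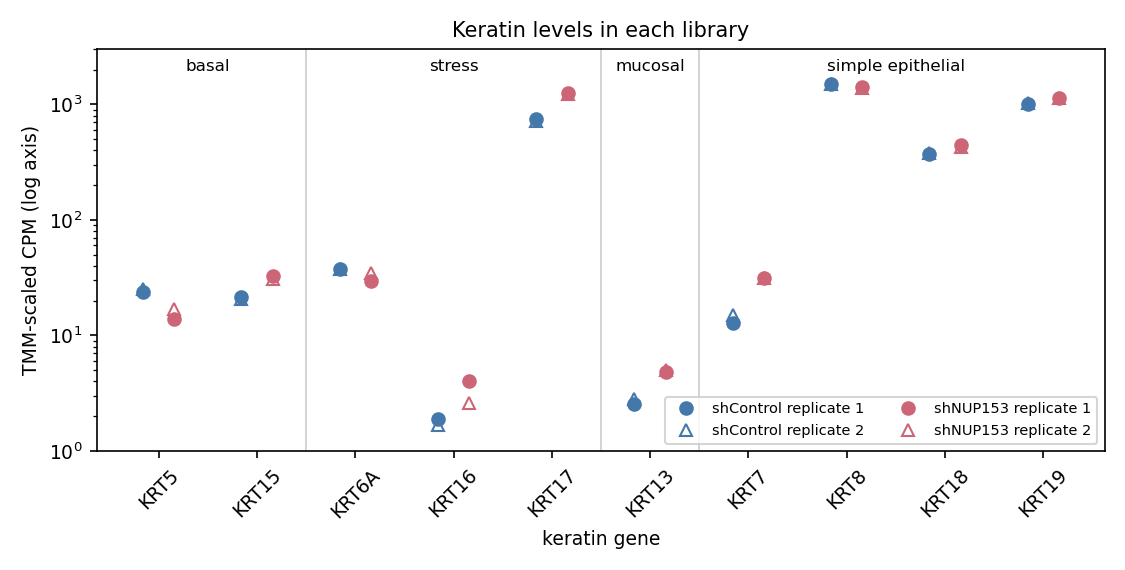
CPM on the TMM scale (log axis, not divided by length) of each keratin in each library; circles are replicate 1, triangles replicate 2, blue shControl and red shNUP153. KRT8, KRT19, KRT17 and KRT18 lie above 300 CPM and the other 6 below 50, and in every gene the 2 groups are apart.

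With NUP153 reduced, 7 of the 10 keratins rose, KRT5 and KRT6A fell, and KRT8 did not pass the test (edgeR quasi-likelihood test, Benjamini-Hochberg adjusted p under 0.05 over all 16817 tested genes). All 10 passed the filter on low counts. For comparison, 32.4% of all tested genes were called, 15.0% higher and 17.4% lower. Of these calls 46.3% were higher, against 62.8% with total-count and 57.6% with upper-quartile scaling. The median log2 fold change of the 10 was 0.42, against 0.0054 over all tested genes. For each of the 10 keratins both libraries of one group lay above both of the other, which held for 64.4% of tested genes. Grouped by type, all 6 type I members rose (median 0.69), while of the 4 type II members KRT7 rose and KRT5 and KRT6A fell (median −0.16). Basal, stress and simple keratins each held estimates of both signs. In the simple group the negative estimate was KRT8, which did not pass. In the stress group it was KRT6A, whose call was lost under several alternatives. The type I members KRT16, KRT18, KRT19 and KRT15 also lost their calls under some alternatives, as did KRT5, all without a change of direction.

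**Figure D2:**
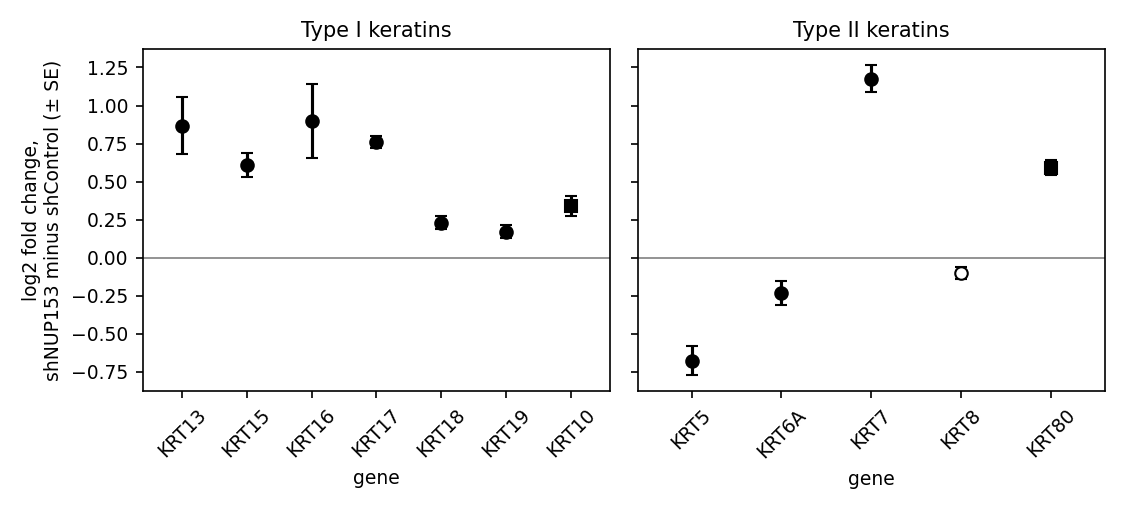
Log2 fold change, shNUP153 minus shControl, with its standard error as the bar, for type I (left) and type II (right) keratins; filled points passed the test, the open point (KRT8) did not, and squares are KRT10 and KRT80, other keratins that passed. The type I values shown lie between 0.17 and 0.90, and the type II values shown between −0.68 and 1.18. Other tested keratins, which did not pass, are not shown. These are KRT32 (−0.02) and KRT34 (1.47) of type I. Of type II they are KRT81 (−0.56), KRT86 (0.13), KRT78 (0.36) and KRT4 (0.66).

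Basal keratins went in opposite directions. KRT5, the type II keratin of basal cells (ENSG00000186081), measured 23.7 and 25.1 CPM in shControl and 13.8 and 16.8 CPM in shNUP153. Both shNUP153 libraries were below both shControl libraries, and KRT5 fell by 0.68 on the log2 scale (SE 0.10, edgeR adjusted p = 7.398e-07). KRT15, a type I keratin of basal and progenitor cells (ENSG00000171346), measured 21.3 and 20.6 CPM in shControl and 32.9 and 30.9 CPM in shNUP153. KRT15 thus rose in both libraries, by 0.61 on the log2 scale (SE 0.08, adjusted p = 2.565e-07). The log2 ratio of KRT5 to KRT15 counts, which needs no scaling between libraries, was 0.15 and 0.29 in shControl and −1.25 and −0.88 in shNUP153, so the gene with more counts of the pair was KRT5 in shControl and KRT15 in shNUP153. With limma without a variance trend KRT5 kept its direction but missed the threshold (adjusted p = 0.0594 to 0.0723), as did KRT15 at a prior count of 0.5 (0.0505).

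Among the stress keratins KRT17 rose, KRT16 rose from a low level and KRT6A fell slightly. KRT17 (ENSG00000128422) measured 745 and 724 CPM in shControl and 1252 and 1238 CPM in shNUP153. The replicates lay close together and the log2 fold change was 0.76 (SE 0.04, edgeR adjusted p = 9.144e-17). KRT16, the type I partner of KRT6 keratins in wounded epithelium (ENSG00000186832), measured 1.89 and 1.69 CPM in shControl and 4.05 and 2.57 in shNUP153, from 42, 45, 105 and 61 counts. Its log2 fold change was 0.90 (SE 0.24, adjusted p = 0.004028), with replicate 1 of shNUP153 well above replicate 2. KRT6A, the most abundant KRT6 gene here (ENSG00000205420), measured 37.7 and 37.4 CPM in shControl and 29.4 and 34.7 CPM in shNUP153. It fell by 0.23 on the log2 scale (SE 0.08, adjusted p = 0.02121), and here too replicate 1 of shNUP153 lay farther from the controls. The near-copies KRT6B (1 to 5 counts in a library) and KRT6C (0 or 1) had almost none.

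The calls for KRT16 and KRT6A rest on few counts or on 1 library. Without shNUP153 replicate 1, KRT16 was at 0.52 (edgeR adjusted p = 0.253) and KRT6A at −0.12 (0.461). KRT6A also missed the threshold with DESeq2 (adjusted p = 0.0977), total-count scaling (0.0932) and upper-quartile scaling (0.0630), and both genes missed it with limma without a variance trend (0.121 to 0.137 for KRT16, 0.220 to 0.236 for KRT6A). The transcribed pseudogene KRT16P2 moved against KRT16, with 28 and 22 shControl counts against 7 and 10 with NUP153 reduced (log2 fold change −1.57, SE 0.45, adjusted p = 0.006628). When the 6 KRT16 pseudogene rows, whose counts came to 31.6% of those of KRT16, were added to KRT16, its log2 fold change was 0.41 (adjusted p = 0.1313). The log2 ratio of KRT6A to KRT16 was 4.32 and 4.47 in shControl and 2.86 and 3.75 in shNUP153. That of KRT6A to KRT17 was −4.30 and −4.28 against −5.41 and −5.16. With pseudogene rows added, the KRT6A to KRT16 ratio was 3.52 and 3.87 in shControl and 2.72 and 3.44 in shNUP153. The difference between group means was then −0.62, against −1.08 without these rows. Relative to KRT6A, both type I stress keratins were therefore higher in each shNUP153 library, KRT16 by a narrow margin with pseudogene rows.

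KRT13, a type I keratin of suprabasal esophageal cells (ENSG00000171401), rose from a low level. It measured 2.52 and 2.81 CPM in shControl and 4.82 and 4.97 CPM in shNUP153, from 56, 75, 125 and 118 counts. Its log2 fold change was 0.87 (SE 0.19, edgeR adjusted p = 0.0004186). KRT4, its type II partner in the esophageal lining and named here after its values were seen, had 30 and 33 shControl counts against 59 and 43 shNUP153 counts, a log2 fold change of 0.66 that did not pass (SE 0.28, adjusted p = 0.06505). KRT4 passed with total-count scaling (0.73, edgeR adjusted p = 0.0388) and upper-quartile scaling (0.71, 0.0475). In the other 12 of 14 alternatives it was not called. Among these were DESeq2 (0.66, adjusted p = 0.249) and limma without a variance trend (0.0788 to 0.0897). An antisense gene overlapping KRT13 (AC019349.1) had 0 counts in all libraries.

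Of the simple epithelial keratins KRT7 changed most. KRT7, a type II keratin of glandular and ductal epithelium (ENSG00000135480), measured 12.7 and 14.9 CPM in shControl and 31.3 and 31.4 CPM in shNUP153. Its change of 1.18 on the log2 scale (SE 0.09, edgeR adjusted p = 9.884e-13) was the largest of the 10 members in size. KRT7 shares 282 exonic bases at most with KRT7-AS or KRT87P on the opposite strand, and these had 15 to 27 and 25 to 47 counts in a library, against 281 to 813 for KRT7. KRT19, a type I keratin with no tail domain (ENSG00000171345), measured 1009 and 1018 CPM in shControl and 1143 and 1141 CPM in shNUP153. That is a small rise with tight replicates, 0.17 on the log2 scale (SE 0.04, adjusted p = 0.001043). The log2 ratio of KRT7 to KRT19 was −6.32 and −6.09 in shControl and −5.19 in both shNUP153 libraries.

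KRT8 and KRT18, the obligate pair of simple epithelium, lie next to each other on chromosome 12; KRT18 rose and KRT8 did not pass the test. KRT18 (ENSG00000111057) measured 371 and 379 CPM in shControl and 449 and 431 CPM in shNUP153, and rose by 0.23 on the log2 scale (SE 0.04, edgeR adjusted p = 8.954e-05). KRT8 (ENSG00000170421) measured 1491 and 1512 CPM in shControl and 1410 and 1394 CPM in shNUP153. Its log2 fold change was −0.10 (SE 0.04, adjusted p = 0.05526), with a 95% interval of −0.18 to −0.02 before adjustment, so any change was small. The log2 ratio of KRT8 to KRT18 counts was 2.01 and 1.996 in shControl and 1.65 and 1.69 in shNUP153, a difference of −0.33 that was −0.33 too with pseudogene rows added to both genes. With no filter on low counts KRT8 passed as lower (−0.11, edgeR adjusted p = 0.009597). Its log2 fold change was −0.11 without shControl replicate 1, −0.11 without shNUP153 replicate 1 and −0.09 without shNUP153 replicate 2. The estimate was smaller and did not pass with total-count scaling (−0.04, edgeR adjusted p = 0.542) and upper-quartile scaling (−0.06, 0.306). KRT8 also missed the threshold at a mean of 5 CPM or more (−0.07, 0.146) and with limma without a variance trend (0.3145 to 0.3213). With limma without a variance trend, neither KRT18 (adjusted p = 0.104 to 0.112) nor KRT19 (0.145 to 0.148) passed. Pseudogene rows came to 3.4% of KRT8 counts and 0.868% of KRT18 counts. The most counted KRT8 pseudogene, KRT8P12, had 619 and 641 shControl counts against 665 and 590 with NUP153 reduced. In GENCODE the outer exons of KRT8 and KRT18 overlap on opposite strands by 525 bases, and without a stated strand reads there cannot be assigned.

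**Figure D3:**
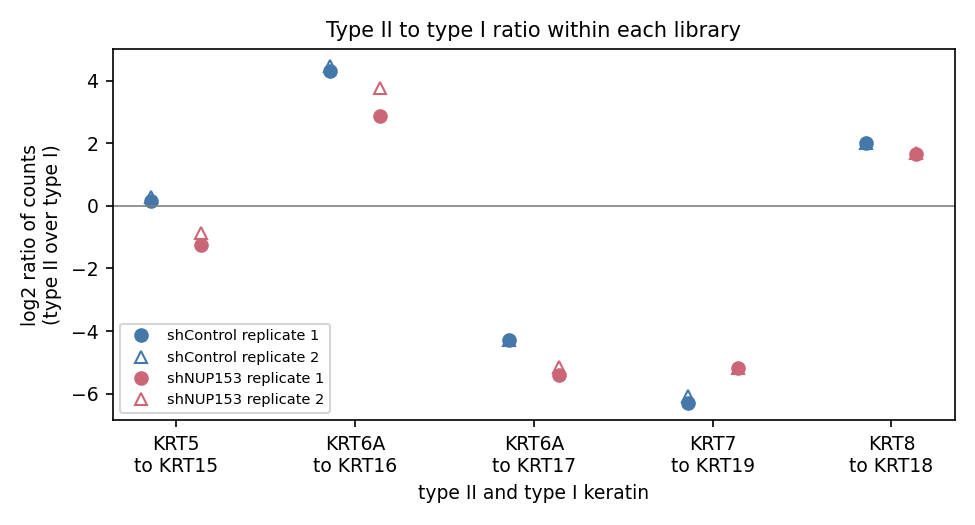
Log2 ratio of type II to type I keratin counts within each library for 5 pairs; circles are replicate 1, triangles replicate 2, blue shControl and red shNUP153. In 4 pairs the ratio is lower in both shNUP153 libraries, and KRT7 to KRT19 is higher in both.

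These ratios are given as values per library and were not tested. Summed over the 10 keratins, type I counts were 57.9% and 57.4% of the total in shControl and 66.0% and 65.9% in shNUP153. The type II to type I ratio of counts went from 0.728 and 0.741 to 0.515 and 0.518. On the TMM scale summed type I keratins measured 2151 and 2145 CPM in shControl and 2885 and 2849 in shNUP153, and summed type II keratins 1565 and 1589 against 1485 and 1477. The groups did not overlap in either sum, and the type I sum differed far more. The direction of the type II sum depends on the genes summed: over all 26 type II keratin genes, KRT80 included, it was 1990 and 2010 CPM in shControl and 2166 and 2063 in shNUP153, higher rather than lower. Over all 28 type I genes the sum was 2220 and 2230 against 2981 and 2949 CPM, and the type II to type I ratio of counts was still lower in shNUP153 (0.897 and 0.901 against 0.727 and 0.6996).

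Shares of the summed counts, which are not corrected for transcript length, show which genes carried this. KRT17 made up 20.05% and 19.4% of the counts of the 10 keratins in shControl and 28.6% in both shNUP153 libraries. KRT8 made up 40.1% and 40.5% against 32.3% and 32.2%. KRT18, at 10.0% and 10.1% against 10.3% and 9.96%, overlapped between groups (not with all 203 keratin-symbol rows as denominator: 8.69% and 8.82% against 8.64% and 8.50%), and KRT19 went from 27.2% and 27.3% to 26.1% and 26.4%. The other 6 keratins together were 2.66% to 2.80% in every library. As a share of all counts in a library, the 10 keratins came to 0.365% and 0.363% in shControl and 0.449% and 0.439% in shNUP153.

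**Figure D4:**
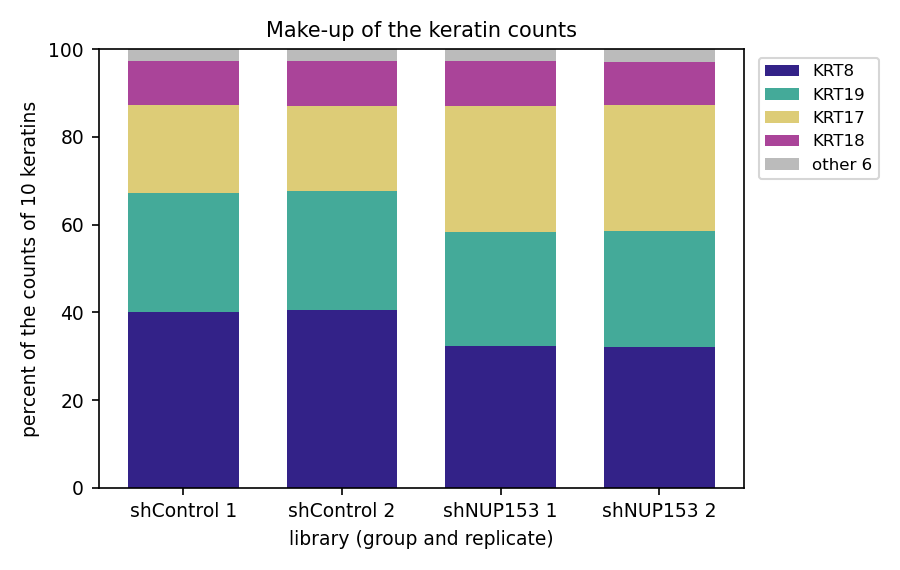
Percent of the counts of the 10 keratins that each gene takes in each library (bars stack to 100; no error bars, 1 library per bar). KRT17 takes a larger and KRT8 a smaller share in both shNUP153 libraries.

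Among the other keratin genes only KRT10 and KRT80 passed the test. Of 22 other type I genes, 3 were abundant enough to test and KRT10, a keratin of differentiating suprabasal cells, rose (67.4 and 83.1 CPM in shControl, 93.4 and 97.7 in shNUP153; log2 fold change 0.34, SE 0.07, edgeR adjusted p = 0.0001054). The call for KRT10 was lost with DESeq2 (adjusted p = 0.0760) and with limma without a variance trend (0.159 to 0.177). Of 22 other type II genes, 5 were tested and KRT80, a keratin expressed in many epithelia, rose (414 and 412 CPM against 669 and 575; 0.59, SE 0.05, adjusted p = 1.179e-11; 0.0545 to 0.0664 with limma without a variance trend). With the members included, 7 of 9 tested type I genes rose and 0 fell, and 2 of 9 tested type II genes rose and 2 fell. These counts contain the 6 type I and 4 type II members described above. Of all tested genes, 15.0% were called higher and 17.4% lower.

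Promoter sequence from RefSeq (GRCh38.p14, 250 bases before to 50 after a start site) was matched for 2 members, KRT5, which fell, and KRT8, which kept nearly its level. Both are given 5′ to 3′ on the gene's strand, with capitals for the KLF-type motif CACCC on either strand. Other start sites are annotated for KRT8, and whether its window belongs to the transcript used for its level was not checked.
KRT5 at chr12:52520345-52520644, minus strand: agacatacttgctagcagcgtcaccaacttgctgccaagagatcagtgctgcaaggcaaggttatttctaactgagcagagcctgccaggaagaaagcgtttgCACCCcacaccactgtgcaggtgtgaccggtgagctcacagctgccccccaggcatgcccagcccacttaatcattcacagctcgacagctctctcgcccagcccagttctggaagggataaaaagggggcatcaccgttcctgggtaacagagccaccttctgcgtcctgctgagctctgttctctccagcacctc
KRT8 at chr12:52926420-52926719, minus strand: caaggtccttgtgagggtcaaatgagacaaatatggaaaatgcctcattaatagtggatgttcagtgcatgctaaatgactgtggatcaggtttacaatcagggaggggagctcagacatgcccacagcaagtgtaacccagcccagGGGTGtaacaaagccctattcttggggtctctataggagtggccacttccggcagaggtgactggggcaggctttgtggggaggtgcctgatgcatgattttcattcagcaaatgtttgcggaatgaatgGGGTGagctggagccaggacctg
The motif CACCC occurred at 1 place in the KRT5 window, 147 bases before the start site, and at 2 places in the KRT8 window. It is common, being found in 59.9% of the 35116 promoters of the table. The AP-1 motif TGANTCA (7.71% of promoters), the GC box GGGCGG (44.95%), the CCAAT box CCAAT (34.6%) and the interferon-stimulated response element (3.57%) were not in either window on either strand. Of these motifs none overlapped another there, and a match is a description, not a site.

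RNA of genes for proteins that anchor keratin filaments changed in both directions. Of 13 plakin and anchor genes, 4 rose, 4 fell and 5 did not pass (median log2 fold change 0.04, against 0.0054 over all tested genes). Over all tested genes, 15.0% were called higher and 17.4% lower. The plakins periplakin (PPL, 0.50, edgeR adjusted p = 1.989e-10), plectin (PLEC, 0.35, 4.052e-08) and epiplakin (EPPK1, 0.34, 0.002914) rose, while desmoplakin, which ties keratins to desmosomes (DSP, −0.24, 0.000151), fell. Without shNUP153 replicate 1 the anchor counts were 2 higher and 2 lower, and without shNUP153 replicate 2 they were 3 and 1. EPPK1 was not called without shNUP153 replicate 1 (adjusted p = 0.0930). With limma without a variance trend PLEC (0.0626 to 0.0720), DSP (0.136 to 0.148) and EPPK1 (0.0731 to 0.0826) missed the threshold, as PPL did at a prior count of 0.5 (0.0524).

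Of 12 other cytoplasmic intermediate filament genes, 6 were tested, 2 rose and 2 fell (median 0.33), where 15.0% of all tested genes rose and 17.4% fell. The neuronal filament gene INA (alpha-internexin, mean 4.61 CPM in shControl and 8.94 in shNUP153; 0.97, edgeR adjusted p = 3.94e-06) and the lens filament gene BFSP1 (0.34, 0.03809) rose. The synemin gene SYNM (−0.52, 6.045e-06) and the vimentin gene VIM (−0.27, 0.003495), a mesenchymal filament, fell. With limma without a variance trend INA (0.0607 to 0.0749) and VIM (0.0822 to 0.0899) missed the threshold, and SYNM did at prior counts of 2 and 0.5 (0.0509 and 0.0557). VIM was also not called without shNUP153 replicate 2 (−0.24, adjusted p = 0.0868). BFSP1 lost its call under 7 of 15 alternatives, among them DESeq2 (adjusted p = 0.176) and leaving out shNUP153 replicate 1 (0.17, adjusted p = 0.503).

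Transcription factors known to act at keratin genes were split too: of 21, 10 rose, 6 fell and 5 did not pass (median 0.09). The shares over all tested genes were 15.0% higher and 17.4% lower. The AP-1 subunits JUN (0.65, edgeR adjusted p = 7.02e-12) and FOSL1 (0.38, 4.324e-08) and the epithelial ETS factor ELF3 (0.52, 7.919e-08) rose. Among the 6 that fell were EHF (−0.35, edgeR adjusted p = 6.933e-06), SP1 (−0.35, 1.081e-05) and GLI2 (−0.80, 0.0001774). TP63, the master regulator of stratified epithelium, was at −0.08 (SE 0.05, adjusted p = 0.1918). With limma without a variance trend FOSL1 (0.0628 to 0.0730) and ELF3 (0.0609 to 0.0730) missed the threshold, and 1 factor of the 21 was called in each direction. Whether any of these factors bears on the keratin levels was not tested.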

How the data were processed

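RNA-seq libraries of TE5 cells (2 shControl, 2 shNUP153) were taken from one deposited table of counts per gene, grouped by sample title. The labels call the table FPKM, but its deposited values are whole, with library totals that differ, and were treated as raw counts. The authors' deposited log2 ratio entered no test. Per the submitters' processing notes, kallisto, DESeq2, Bowtie2 and deepTools and build hg19 were used, with no role given; the sources used here state no counting rule, annotation or strand.

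Genes were filtered with filterByExpr (minimum count 10, minimum total 15), scaled by TMM and tested with the quasi-likelihood test of edgeR 4.0.16 (R 4.3.3), two-sided, with Benjamini-Hochberg adjustment over 16817 genes at a threshold of 0.05. Each gene has 2 residual degrees of freedom, moderated across genes. The script was tested on simulated data. Replicates differed by more than sampling noise (mean chi-square per gene 3.58 within shControl and 3.10 within shNUP153, where sampling noise alone gives a value near unity). Alternatives were DESeq2 1.42.0, limma 3.58.1 without a variance trend, other scalings and filters, pseudogene rows added, a replicate block and leaving out each library. Named genes were the members, other keratins past the test, and up to 4 genes of each further list by smallest p. KRT4, KRT14, KRT6B, KRT6C, TP63, EHF, SP1, GLI2 and the overlapping or pseudogene rows were added to this rule's genes after values were seen. Some sequences and 1 gene that this rule names are not reported here. The members and lists were chosen with earlier results of these data known. Transcript lengths and sequences came from GENCODE release 29 and promoters from RefSeq, matched by gene ID or symbol.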

Additional observations from a re-analysis of the deposited data

How the results depend on the processing

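The 10 members kept their direction under each of the 15 alternatives that gave them a value. TMM factors made without keratin rows changed no member's call. Deviations of same-numbered libraries were close to uncorrelated (correlation −0.0036), which cannot show whether these libraries were handled together. With a replicate block 7 members rose and 2 fell, as without it. By DESeq2, 1442 of all genes were higher and 1 member lower, no other type I keratin was called (0), and 1 other filament gene was higher. With limma without a variance trend at prior counts of 2, 0.5 and 5, all genes higher numbered 393, 241 and 569 and lower 390, 244 and 571; members higher 4, 3 and 4 and lower 0 each time; other type I and other type II keratins higher 0 each time; anchors higher 1, 0 and 1 and lower 0 each time; other filaments higher 0 each time and lower 0, 0 and 1; factors 1 higher and 1 lower each time. With total-count scaling 1 member was lower, 2 other type I and 2 other type II keratins were higher, 1 anchor was lower, and the medians of anchors and factors were 0.0998 and 0.152. With upper-quartile scaling 1 member was lower, 2 other type II keratins were higher, and 2 anchors were lower (median 0.0797). Of all calls, 46.3% were higher by TMM, 62.8% by total counts and 57.6% by upper quartile, with the median of all genes moved by 0.0635 and 0.0433. With no filter 1 other filament gene was higher and the median of other type I keratins was 1.88, since more genes enter. At a mean of 5 CPM or more KRT13 and KRT16 were not tested, and the medians were 0.227 for members and 0.061 for other filaments. With pseudogene rows added the members' median was 0.321. Summing all type I or type II keratin genes, chosen after seeing the data, turned the difference of the type II sum from −96.2 to 114.5 CPM. It moved that of the type I sum from 718.8 to 740.1 CPM and that of the type II to type I ratio from −0.218 to −0.186.

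Leaving out each library in turn gave 1303 to 2327 genes higher and 1769 to 2874 lower, the lowest without shNUP153 replicate 1 (1442 and 1900 without shNUP153 replicate 2). It gave 1 to 3 members lower, 1 to 2 other type I keratins higher (median 0.0368 to 0.496), and a median of 0.133 to 0.479 for other type II keratins. Anchors were 2 to 5 higher and 1 to 3 lower, other filaments 1 to 2 higher and 1 to 2 lower, and the median of factors was 0.0522 to 0.187. A lone library left in a group is assumed to vary like the other group. Counts of 42 to 125 limit KRT16 and KRT13. The identity of member proteins was not analysed here.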
